A study of Homo sapiens with 12 samples.

Results

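The 10 genes described here encode subunits of mTORC1, the mechanistic target of rapamycin complex, and regulators that connect the kinase to growth factors and amino acids. They are MTOR, RPTOR, DEPTOR and AKT1S1 of the complex, RHEB, TSC1 and TSC2 of its growth factor branch, and RRAGC, RRAGD and FLCN of its amino acid branch. They were taken by symbol from the deposited count table, in which all 10 have an entry among 19504 genes with a symbol, and all 10 were among the 12392 genes with enough counts to be tested. The cells were MV4-11, an acute myeloid leukaemia line that carries the internal tandem duplication of the receptor kinase FLT3 (FLT3-ITD), and OCI-AML3, an acute myeloid leukaemia line without that duplication. Each line received DMSO as the vehicle control or AC220 (quizartinib), an inhibitor of FLT3, at 5 nM for 24 h in the same serum-containing medium with added glutamine dipeptide, and each of the 4 groups holds 3 libraries. The libraries count the 3′ ends of polyadenylated transcripts, so a value is a transcript level, and neither protein nor kinase activity was measured. Nothing in the labels says that the 3 libraries of a group came from separate cultures, so a p-value here sets a difference against the scatter among libraries, and that scatter may be purely technical.

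mTORC1 is a kinase complex that promotes protein, lipid and nucleotide synthesis and restrains autophagy when nutrients and growth signals are present. RHEB, a small GTPase on the lysosome, activates the kinase, and the TSC1 and TSC2 proteins switch RHEB off until growth factor signalling through AKT relieves them. Amino acids act through the Rag GTPases, which bring the complex to the lysosome, and FLCN is the GTPase-activating protein for RRAGC and RRAGD. In leukaemias driven by FLT3 this pathway lies downstream of the receptor, and mTORC1 output is known to feed metabolic gene expression.

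Library totals were between 15041493 and 16918761 counts in the MV4-11 DMSO group, 11419454 and 13328968 in the MV4-11 AC220 group, 13013381 and 13455082 in the OCI-AML3 DMSO group, and 10877198 and 14458640 in the OCI-AML3 AC220 group. Levels are given as CPM, the count of a gene scaled to a common library total, with TMM, edgeR's trimmed mean of M-values, and a difference is the log2 fold change of edgeR's quasi-likelihood test with its standard error (SE). A gene is said to rise or fall where its p-value, adjusted over all 12392 genes by Benjamini and Hochberg's method, was under 0.05. In the MV4-11 AC220 group the library numbered 1 lay further from the other two (chi-square per degree of freedom 9.56 and 10.6, range over all replicate pairs 2.79 to 10.6). In both OCI-AML3 groups it was the library numbered 3. Its values were 6.65 and 6.59 under DMSO, beside 2.79 for the other pair, and 8.65 and 7.04 under AC220, beside 4.42. Within groups the coefficient of variation of the 10 genes had a median of 8.18% and ran from 0.305% to 25.1%. All 8 myeloid markers had counts in every group, though CD14 stood at 0, 0.093 and 0 CPM in the MV4-11 AC220 libraries. The highest of the checked markers of other cells was KRT8, at 10.3 to 18.4 CPM over the MV4-11 libraries. The summed myeloid level was 256 to 279 CPM under DMSO and 486 to 501 CPM under AC220 in MV4-11. It was between 424 and 472 CPM in OCI-AML3. In MV4-11, PTPRC, LYZ, CSF1R and ITGAM were higher in every treated library, and CD33, SPI1 and MPO overlapped. CD14 was lower but barely counted in either group, at 0.406, 0.385 and 0.193 CPM under DMSO. The part of this shift in the results below was not tested, and in bulk RNA fewer cells expressing a gene cannot be told apart from less RNA per cell.

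Under AC220, MV4-11 cells held more transcript of DEPTOR, an inhibitory subunit of mTOR complexes, and of RRAGC and TSC1, and less of TSC2, RHEB, FLCN, RRAGD and MTOR. Thus 8 of the 10 genes passed the test in MV4-11, 3 higher and 5 lower, in a comparison in which 58.3% of all tested genes passed, 31.5% higher and 26.9% lower. The libraries of the 2 treatments did not overlap for the same 8 genes, against 62.4% of all tested genes. The median log2 fold change of the 10 was -0.17, beside 0.07 over all tested genes. Apart from DEPTOR, every fold change was at most 1.4 in either direction.

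**Figure D1:**
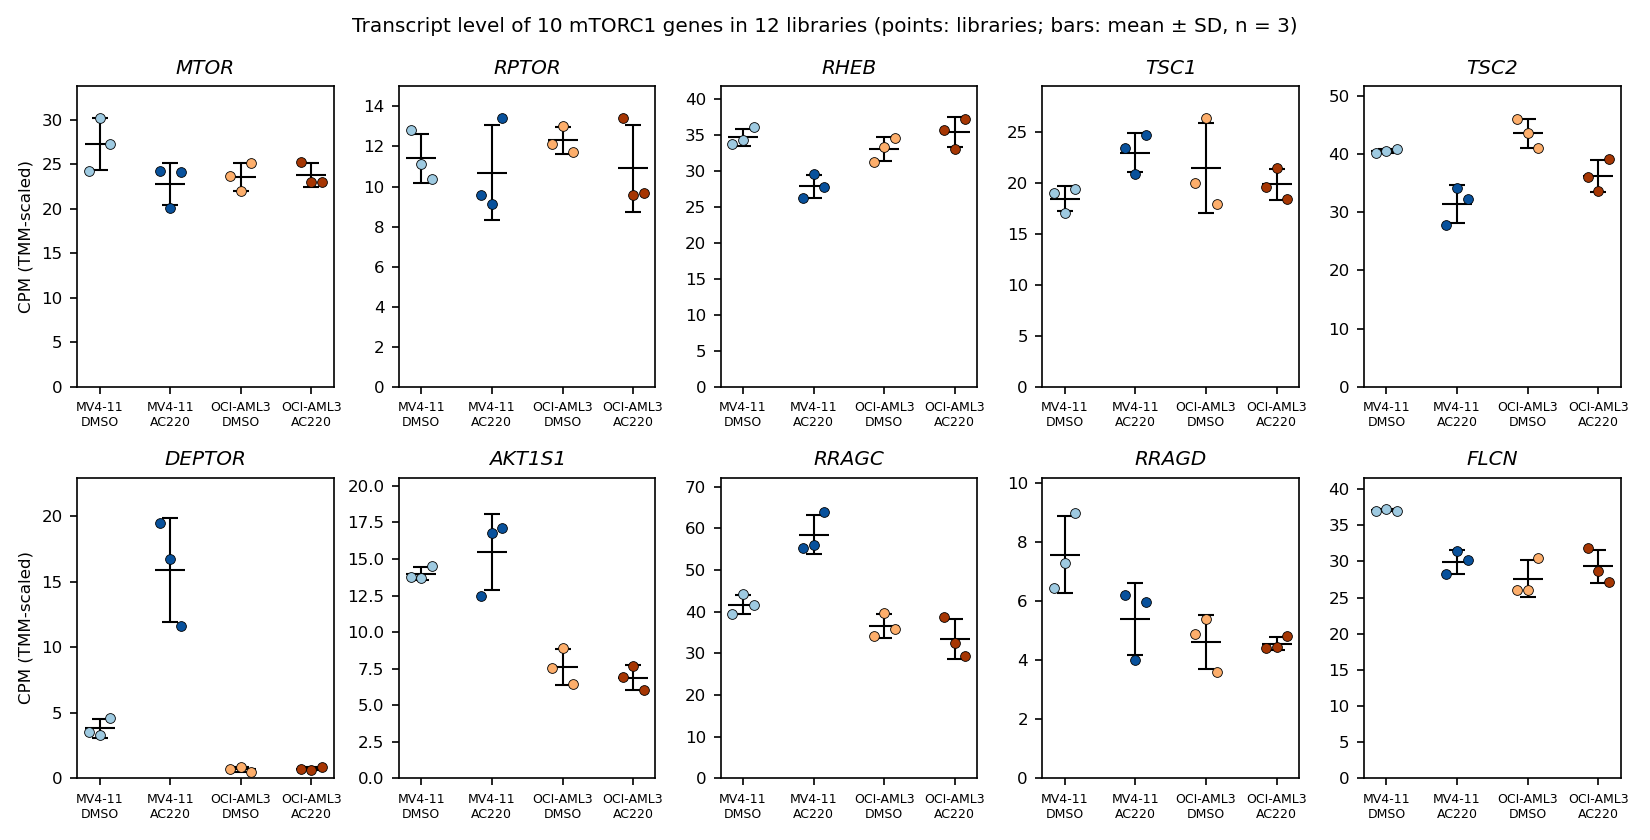
Level of each of the 10 genes in the 12 libraries (vertical axes, CPM, each from 0), by line and treatment; points are libraries and bars are the mean ± SD of 3. In MV4-11 the DEPTOR points move from 3.27 to 4.63 CPM under DMSO to 11.6 to 19.5 CPM under AC220, and in OCI-AML3 they stay below 0.9 CPM.

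Among the genes of the complex described here, DEPTOR rose, MTOR fell slightly, and RPTOR and AKT1S1 did not pass the test. MLST8, a further subunit, fell from 47.8 to 19 CPM and is taken up below with the other pathway genes. DEPTOR, which binds mTOR and restrains its kinase activity, was at 3.54, 3.27 and 4.63 CPM in the MV4-11 DMSO libraries and at 19.5, 16.7 and 11.6 CPM in the AC220 libraries. Each treated library was above each control. The rise was 4.19-fold (log2 fold change 2.07, SE 0.206, adjusted p = 8.71e-10), and without any 1 library the log2 fold change lay between 1.89 and 2.22. MTOR, the kinase itself, was at 24.3, 30.2 and 27.3 CPM under DMSO and at 24.3, 20.1 and 24.1 CPM under AC220. The lowest control and the highest treated library thus met at the same rounded value (log2 fold change -0.25, SE 0.109, adjusted p = 0.0491). This call was lost without MV4-11 DMSO replicate 2 (-0.18, adjusted p = 0.23), DMSO replicate 3 (adjusted p = 0.0886) or AC220 replicate 2 (-0.17, adjusted p = 0.23), on leaving out OCI-AML3 DMSO replicate 1 (0.053), its DMSO replicate 2 (0.0541) or its AC220 replicate 2 (0.0518), and with 6 other settings (adjusted p between 0.0533 and 0.0979). RPTOR, the scaffold that presents substrates to the kinase, was at 12.8, 11.1 and 10.4 CPM under DMSO and at 9.57, 9.12 and 13.4 CPM under AC220. Its groups overlapped, and the 95% interval of its log2 fold change, -0.43 to 0.24, included 0 (adjusted p = 0.627). AKT1S1, which encodes the inhibitory substrate PRAS40, was at 13.8, 13.7 and 14.5 CPM under DMSO and at 12.5, 16.8 and 17.1 CPM under AC220, with overlapping groups (0.14, 95% interval -0.17 to 0.44, adjusted p = 0.449).

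In the RHEB and TSC branch the members of the TSC complex went opposite ways. TSC2, the GTPase-activating subunit that switches RHEB off, was at 40.2, 40.5 and 40.8 CPM in the MV4-11 DMSO libraries and at 27.8, 34.2 and 32.3 CPM in the AC220 libraries. The control libraries were nearly alike and every treated library lay below them (-0.37, SE 0.0938, adjusted p = 0.0013). TSC1, which stabilises TSC2, was at 19, 17.1 and 19.4 CPM under DMSO and at 23.5, 20.9 and 24.7 CPM under AC220. Its treated libraries were all above its controls (0.32, SE 0.125, adjusted p = 0.0327). The TSC1 call was lost without MV4-11 DMSO replicate 1 (adjusted p = 0.0564), DMSO replicate 2 (0.13), AC220 replicate 1 (0.0633) or AC220 replicate 3 (0.204), with limma on the deposited values (0.0537), and with the MV4-11 libraries fitted alone (0.0552). RHEB, the activating GTPase, was at 33.7, 34.2 and 36 CPM under DMSO and at 26.2, 29.5 and 27.7 CPM under AC220. All treated RHEB libraries were below all controls (-0.32, SE 0.0925, adjusted p = 0.00419). In GENCODE 29, the last kilobase of TSC2 overlaps PKD1 on the opposite strand, and the strand setting of the counting is not given in the sources used here. PKD1 fell from 46.4 ± 3.71 to 16.6 ± 1.58 CPM (SD, n = 3) in MV4-11 (-1.48, adjusted p = 7.44e-13), and its part in the TSC2 value was not tested. RHEB has 3 annotated pseudogenes whose reads could be split from or added to its own.

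In the Rag branch, RRAGC and RRAGD, the alternative partners that form a heterodimer with RRAGA or RRAGB, also went opposite ways. RRAGC was at 39.5, 44.2 and 41.5 CPM in the MV4-11 DMSO libraries and at 55.4, 56.1 and 63.9 CPM in the AC220 libraries. The treated libraries were clearly separate and higher, and the rise was 1.4-fold (0.49, SE 0.096, adjusted p = 7.78e-05). RRAGD was lower in level, at 6.44, 7.31 and 9 CPM under DMSO and at 6.23, 4 and 5.99 CPM under AC220. The highest treated and the lowest control library were close (log2 fold change -0.48, SE 0.203, adjusted p = 0.0455). The RRAGD call was lost without MV4-11 DMSO replicate 2 (adjusted p = 0.0671), DMSO replicate 3 (-0.34, 0.215) or AC220 replicate 2 (-0.31, 0.225), with a stricter filter on low counts (0.0544), with DESeq2 (0.06) and with the replicate number as a block (0.0598). FLCN, which with its FNIP partners promotes the active nucleotide state of RRAGC and RRAGD, was at 37, 37.2 and 37 CPM under DMSO and at 28.2, 31.4 and 30.2 CPM under AC220. Its controls were the tightest of any gene and group here, and every treated library was lower (-0.31, SE 0.0956, adjusted p = 0.00652).

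**Figure D2:**
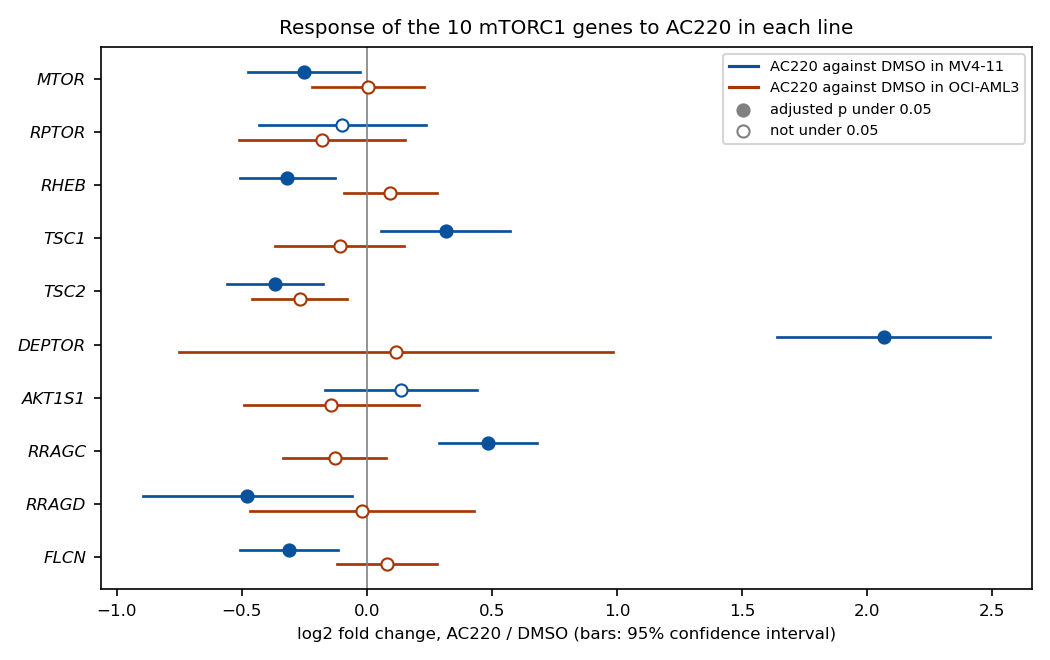
Log2 fold change of AC220 against DMSO for the 10 genes in MV4-11 and in OCI-AML3, with 95% intervals from edgeR over 3 libraries a group. DEPTOR at 2.07 in MV4-11 stands far from the other 9, which lie between -0.48 and 0.49, and in OCI-AML3 the estimates lie between -0.27 and 0.12.

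In OCI-AML3, 0 of the 10 genes passed edgeR's test after AC220, in a comparison in which 3.95% of all tested genes passed, 3.44% higher and 0.508% lower. The median log2 fold change of the 10 was -0.06, beside 0.00 over all tested genes, and 1 gene, TSC2, had an unadjusted p under 0.05 in that test. Of all genes that passed, 426 were higher and 63 lower, or 363 and 126 with median-ratio scaling. TSC2 was at 46.1, 43.7 and 41.1 CPM under DMSO and at 36, 33.6 and 39.1 CPM under AC220. Its libraries did not overlap, as for 23.9% of all tested genes, and edgeR's quasi-likelihood test gave it a log2 fold change of -0.27 (SE 0.0925, adjusted p = 0.0875). DESeq2 called 1 of the 10, TSC2 (-0.30, adjusted p = 0.0443), limma-voom and limma on the deposited values called 0, and edgeR called TSC2 without MV4-11 AC220 replicate 1 (adjusted p = 0.0413). For MTOR the libraries were at 23.7, 22 and 25.2 CPM and at 25.3, 23 and 23 CPM, and the 95% interval of the log2 fold change was -0.22 to 0.23. RRAGC was at 34.1, 39.7 and 35.8 CPM and at 38.7, 32.6 and 29.3 CPM (-0.33 to 0.08). RHEB was at 31.2, 33.3 and 34.5 CPM and at 35.6, 33 and 37.1 CPM (-0.09 to 0.28). FLCN was at 26.1, 26.1 and 30.5 CPM and at 31.8, 28.7 and 27.2 CPM (-0.12 to 0.28), and, like MTOR, RRAGC and RHEB, it had overlapping groups. TSC1 was at 20, 26.4 and 18 CPM and at 19.6, 21.5 and 18.5 CPM (-0.37 to 0.15). RPTOR was at 12.1, 13 and 11.7 CPM and at 13.4, 9.58 and 9.7 CPM (-0.51 to 0.15). AKT1S1 was at 7.54, 8.89 and 6.43 CPM and at 6.94, 7.7 and 6.04 CPM (-0.49 to 0.21), and its groups overlapped as did those of TSC1 and RPTOR. RRAGD was at 4.89, 5.39 and 3.61 CPM and at 4.42, 4.44 and 4.81 CPM (-0.47 to 0.43). DEPTOR rested on 9, 11 and 7 counts under DMSO and 8, 9 and 12 under AC220, and its interval of -0.75 to 0.99 includes 0 and smaller changes of either sign, which were not detectable at this depth, but not the 2.07 of MV4-11.

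The difference between the lines in their response to AC220 was tested as an interaction over all 12 libraries. It passed for 4 of the 10 genes, 2 in each direction, where 46.7% of all tested genes passed (23% more positive and 23.7% more negative in MV4-11), and the median of the 10 was -0.01 beside 0.03 over all tested genes. RRAGC (0.62, SE 0.139, adjusted p = 0.000554) and DEPTOR (1.95, SE 0.485, adjusted p = 0.00148) responded more positively in MV4-11. RHEB (-0.41, SE 0.13, adjusted p = 0.0102) and FLCN (-0.39, SE 0.137, adjusted p = 0.0193) responded more negatively there. FLCN lost its call when OCI-AML3 DMSO replicate 1 (adjusted p = 0.0512), that line's DMSO replicate 2 (0.0596) or its AC220 replicate 1 (0.0589) was left out, and with limma on the deposited values (0.0571). TSC1 missed the threshold (0.42, SE 0.178, adjusted p = 0.0514). It passed without MV4-11 AC220 replicate 2 (adjusted p = 0.0342), OCI-AML3 DMSO replicate 1 (0.0498), that line's DMSO replicate 3 (0.0152) or its AC220 replicate 2 (0.0444), with median-ratio scaling (0.0349), a stricter filter (0.04) and DESeq2 (0.0437). TSC1 also passed without both OCI-AML3 libraries numbered 3 (adjusted p = 0.0354), a fit added after the data were seen. For TSC2 the interval of the difference was -0.37 to 0.17, so its fall in MV4-11 was not shown to differ from the lower estimate in OCI-AML3. MTOR (-0.57 to 0.06) and RRAGD (-1.07 to 0.15), which fell in MV4-11, were likewise not shown to differ between the lines.

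Ratios of gene pairs within a library, in which library scaling cancels, were formed after the values had been seen and carry no test. Of 6 such ratios, RPTOR to MTOR overlapped between the treatments in MV4-11 (0.367 to 0.524 under DMSO and 0.394 to 0.556 under AC220), and RPTOR to RICTOR met at its edge (1 to 1.13 and 0.643 to 1). They compare groups, since 3′ counts of different genes need not be captured equally. TSC1 to TSC2 was 0.473, 0.422 and 0.476 in MV4-11 under DMSO and 0.844, 0.611 and 0.764 under AC220, against 0.433 to 0.64 over the 6 OCI-AML3 libraries. The treated MV4-11 libraries were above their controls, and 2 of the 3 were above every OCI-AML3 library. RRAGC to FLCN was 1.07, 1.19 and 1.12 under DMSO and 1.97, 1.79 and 2.11 under AC220 in MV4-11, against 1.08 to 1.52 in OCI-AML3, so that the treated MV4-11 libraries were above all other 9. RRAGC to RRAGD was 6.14, 6.04 and 4.61 under DMSO and 8.9, 14 and 10.7 under AC220 in MV4-11, and between 6.09 and 9.92 in OCI-AML3. DEPTOR to MTOR was 0.145, 0.108 and 0.17 under DMSO and 0.803, 0.829 and 0.481 under AC220 in MV4-11, and at most 0.0379 in OCI-AML3.

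**Figure D3:**
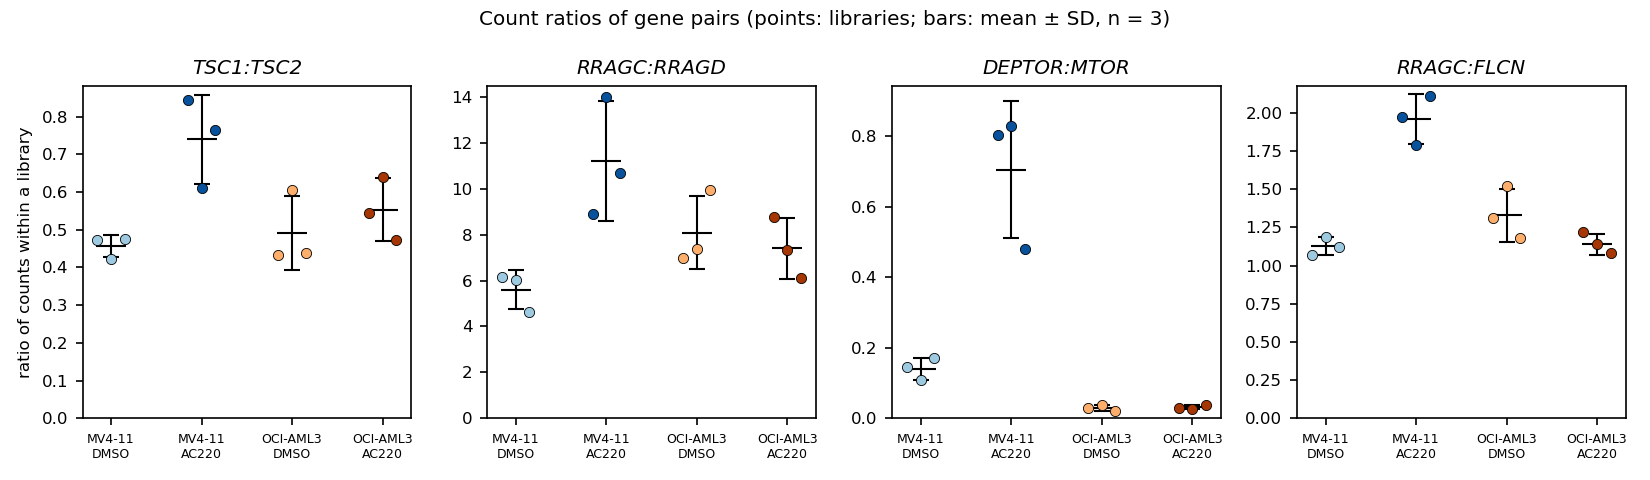
Ratio of the counts of 2 genes in each of the 12 libraries (vertical axes, from 0), by line and treatment; points are libraries and bars are the mean ± SD of 3. The MV4-11 AC220 libraries lie above the MV4-11 DMSO libraries for RRAGC to FLCN (1.79 to 2.11 against 1.07 to 1.19) and for TSC1 to TSC2 (0.611 to 0.844 against 0.422 to 0.476).

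Without the inhibitor the lines differed in 4 of the 10 genes, all higher in MV4-11, where 65.5% of all tested genes differed, 32.1% higher and 33.4% lower in MV4-11. DEPTOR was 5.56-fold higher in MV4-11 under DMSO (2.47, SE 0.311, adjusted p = 5.1e-08), AKT1S1 1.84-fold higher (0.88, adjusted p = 1.53e-05), RRAGD 1.64-fold higher (0.71, adjusted p = 0.00326) and FLCN 1.34-fold higher (0.43, adjusted p = 0.000278). The libraries of the lines did not overlap for these 4 and for TSC2 (-0.11, adjusted p = 0.31), thus for 5 of 10, against 71.9% of all tested genes. Single libraries added calls in this comparison: MTOR without MV4-11 DMSO replicate 1 (0.28, adjusted p = 0.0429) or AC220 replicate 2 (0.24, 0.0482), RRAGC without OCI-AML3 DMSO replicate 2 (0.28, 0.0304), and TSC1 without OCI-AML3 DMSO replicate 3 (-0.33, 0.0318). TSC1 also passed without both OCI-AML3 libraries numbered 3 (-0.33, adjusted p = 0.0288), and RRAGC with only the libraries compared (0.20, 0.0359).

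Under AC220 the lines again differed in 4 of the 10, 3 higher and 1 lower in MV4-11, where 76.2% of all tested genes differed, 36.7% higher and 39.5% lower. DEPTOR was 21.5-fold higher in MV4-11 (4.42, SE 0.272, adjusted p = 6.87e-15), AKT1S1 2.23-fold (1.16, adjusted p = 2.2e-07) and RRAGC 1.75-fold (0.81, adjusted p = 2.03e-08), and RHEB was lower there (-0.34, adjusted p = 0.00155). The same 4 genes had libraries that did not overlap between the lines, against 75.5% of all tested genes. FLCN, higher in MV4-11 under DMSO, stood at 0.03 under AC220 (95% interval -0.17 to 0.23), and RRAGD stood at 0.25 (-0.19 to 0.70). TSC2 was close to the threshold (-0.21, adjusted p = 0.0507) and passed without MV4-11 AC220 replicate 2 (0.0407), AC220 replicate 3 (0.0471), OCI-AML3 DMSO replicate 3 (0.0462) or AC220 replicate 2 (0.0277), and TSC1 passed without MV4-11 AC220 replicate 2 (0.31, 0.0474). On all libraries, TSC2 passed with limma-voom (-0.21, adjusted p = 0.0465) and with no filter on low counts (-0.23, adjusted p = 0.0395).

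By group mean, DEPTOR ran from MV4-11 AC220 to MV4-11 DMSO to OCI-AML3 AC220 to OCI-AML3 DMSO, where both steps from the top passed (adjusted p = 8.71e-10 and 9.64e-08) and the OCI-AML3 groups did not differ beyond their spread (adjusted p = 0.918). AKT1S1 was highest in both MV4-11 groups, which did not differ beyond their spread (adjusted p = 0.449), and the step to OCI-AML3 DMSO passed (adjusted p = 1.53e-05). For RRAGC only the step from MV4-11 AC220 to MV4-11 DMSO passed, for FLCN and RRAGD only that from MV4-11 DMSO to MV4-11 AC220, and for RHEB only that from OCI-AML3 DMSO down to MV4-11 AC220 (adjusted p = 0.0176). For MTOR, RPTOR, TSC1 and TSC2 no step between neighbouring groups passed edgeR's test. The TSC2 steps had adjusted p = 0.31, 0.123 and 0.0507 from the top. Its OCI-AML3 DMSO and MV4-11 DMSO libraries did not overlap, nor did its MV4-11 DMSO and OCI-AML3 AC220 libraries. Over the 12 libraries, the genes most like DEPTOR by Pearson correlation of log2 CPM were PJA2 (r = 0.994) and TMEM159 (r = 0.993), among 9475 candidates with at least 5 CPM on average. Those most like AKT1S1 were INAFM1 (r = 0.988) and RNH1 (r = 0.984). A correlation does not give the size of a change. In MV4-11 DMSO, MV4-11 AC220, OCI-AML3 DMSO and OCI-AML3 AC220, PJA2 had means of 66.2, 80.1, 51.6 and 52.7 CPM. In the same order TMEM159 had 6.37, 15.7, 2.69 and 2.7 CPM, INAFM1 39.4, 48.3, 18.1 and 17.2 CPM, and RNH1 280, 295, 234 and 218 CPM. These correlations describe 12 libraries that fall into 4 groups and share library depth.

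Another 67 genes of the pathway in 9 lists were examined beside the 10, of which 66 have an entry and 64 were tested. In MV4-11, 42 of the 64 passed under AC220 (65.6%, beside 58.3% of all tested genes), 21 higher and 21 lower, with a median log2 fold change of 0.05 over the 63 with counts in that line. All 4 genes of the shared subunit and assembly list passed. MLST8, the small subunit common to mTORC1 and mTORC2, fell from 47.8 ± 3.26 to 19 ± 0.496 CPM (SD, n = 3; -1.33, adjusted p = 4.68e-13). TTI1, a co-chaperone of mTOR-family kinases, fell by 0.75 on the log2 scale and TTI2, its partner, rose by 0.52. TELO2 (-0.37, adjusted p = 0.0488) had overlapping groups and its call was lost in 13 of the alternative fits. Of the 4 mTORC2 genes, PRR5L rose (1.25) and MAPKAP1 fell (-0.40), while RICTOR, the defining subunit, stood at 0.26 (adjusted p = 0.144). RICTOR passed as higher without MV4-11 AC220 replicate 2 (0.44, adjusted p = 0.0118).

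The list counts that follow are small and stand beside 31.5% higher and 26.9% lower over all tested genes. At the lysosome, 4 of 8 Rag partners and Ragulator subunits passed (50%). LAMTOR1, LAMTOR4 and LAMTOR2, subunits of the Ragulator scaffold that holds the Rags, rose by 0.43, 0.44 and 0.28, and SLC38A9, an arginine-sensing transporter, fell by 0.91. LAMTOR2 lost its call without MV4-11 DMSO replicate 3 (adjusted p = 0.0519) or AC220 replicate 3 (0.0512). Of the 7 genes of GATOR1, the GTPase-activating complex that silences the Rags, and its KICSTOR anchor, DEPDC5 (0.82) and NPRL3 (0.48) rose and ITFG2 (-1.44) fell. Of 5 genes of GATOR2, which counteracts GATOR1, SEH1L (-0.89), MIOS (-0.71) and SEC13 (-0.29) fell and WDR59 (0.39) rose, the last not without MV4-11 DMSO replicate 1 (0.30, adjusted p = 0.0716).

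Among the 6 amino acid sensors tested, 5 passed (83.3%, beside 58.3% of all tested genes), 3 higher and 2 lower. SESN2, the leucine sensor, fell from 111 ± 2.24 to 14.6 ± 1.76 CPM (-2.92, SE 0.0859, adjusted p = 7.91e-22), and LARS, the leucyl-tRNA synthetase, fell from 206 ± 7.03 to 99.9 ± 0.549 CPM (-1.05). SESN3, a relative of SESN2, rose from 1.93 ± 1.26 to 11.6 ± 2.16 CPM (2.63, adjusted p = 5.89e-05) and CASTOR1, the arginine sensor, from 0.755 ± 0.487 to 3.39 ± 0.571 CPM (2.14, adjusted p = 0.000115). BMT2, which encodes the S-adenosylmethionine sensor SAMTOR, rose by 0.46, a call lost without MV4-11 DMSO replicate 1 (adjusted p = 0.121), DMSO replicate 3 (0.0622) or AC220 replicate 1 (0.0862).

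The MiT/TFE transcription factors drive lysosomal genes, and phosphorylation by mTORC1 holds some of them out of the nucleus. Of the 6 FLCN partners and MiT/TFE factors, 4 rose and 1 fell (83.3% passed, beside 58.3% of all tested genes). TFEB rose from 7.58 ± 1.35 to 22.5 ± 3.21 CPM (1.57, adjusted p = 2.51e-09), TFEC from 11 ± 1.83 to 41.7 ± 3.64 CPM (1.93, adjusted p = 1.01e-11) and TFE3 from 12.6 ± 2.21 to 19.7 ± 0.668 CPM (0.64). FNIP1, a binding partner of FLCN, rose by 0.26 (adjusted p = 0.0269), and this call was lost without MV4-11 DMSO replicate 1 (0.104), DMSO replicate 2 (0.0946), AC220 replicate 1 (0.0676), AC220 replicate 2 (0.0619) or AC220 replicate 3 (0.0648). FNIP2, the other partner, had 16, 15 and 20 counts under DMSO and 0, 0 and 4 under AC220 and passed as lower (adjusted p = 8.36e-05). MITF stood at -0.76 (adjusted p = 0.0668), and passed as lower without MV4-11 AC220 replicate 3 (-1.19, 0.0128) or OCI-AML3 DMSO replicate 2 (0.0445), with no filter on low counts (0.0356), with the replicate block (0.0442) and with the MV4-11 libraries fitted alone (0.0451).

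Among 12 tested genes of a list of TSC partners, upstream regulators and the RHEB relative RHEBL1, 5 rose and 2 fell (58.3% passed, the same share as over all tested genes). DDIT4 (REDD1), a stress-induced activator of TSC, fell from 86.7 ± 4.54 to 6.18 ± 1.07 CPM (-3.80, SE 0.115, adjusted p = 1.55e-21). RHEBL1 fell from 7.67 ± 0.369 to 0.586 ± 0.187 CPM (-3.72, adjusted p = 7.16e-13). STK11 (0.62), the kinase upstream of AMPK, and the AMPK subunits PRKAG1 (0.47), PRKAB2 (0.55) and PRKAB1 (0.37) were among those that rose. PRKAB1 lost its call without MV4-11 DMSO replicate 2 (adjusted p = 0.0848), DMSO replicate 3 (0.12) or AC220 replicate 3 (0.0922), and PRKAB2 without AC220 replicate 2 (0.145).

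Of 12 mTORC1 substrates and effectors, 7 fell and 1 rose (66.7% passed, beside 58.3% of all tested genes). EIF4EBP1, the translation repressor that mTORC1 inactivates, fell from 106 ± 5.84 to 31.4 ± 2.65 CPM (-1.76, adjusted p = 4.5e-16). GRB10, an adaptor of insulin signalling, fell from 79.3 ± 4.78 to 10.8 ± 1.65 CPM (-2.88, adjusted p = 1.62e-19). LARP1, a repressor of ribosomal protein mRNAs, fell by 0.60 and PATL1 by 0.98, and ATG13, an autophagy initiation factor, rose by 0.67. Among the 7, ULK1 (-0.23, adjusted p = 0.0469) had overlapping groups and lost its call in 12 alternative fits (adjusted p between 0.0501 and 0.173), among them those without MV4-11 DMSO replicates 1 or 3, MV4-11 AC220 replicates 1 or 3, OCI-AML3 DMSO replicates 1 or 2, or OCI-AML3 AC220 replicate 2. EIF4EBP2 (-0.18, adjusted p = 0.0272) lost its call without MV4-11 DMSO replicate 1 (0.13), DMSO replicate 3 (0.0602) or AC220 replicate 2 (0.0837), and with limma on the deposited values (0.217). The S6 kinases RPS6KB1 (-0.18, adjusted p = 0.16) and RPS6KB2 (-0.17, adjusted p = 0.202) did not pass. RPS6KB1 passed as lower without MV4-11 AC220 replicate 3 (-0.30, adjusted p = 0.0348).

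**Figure D4:**
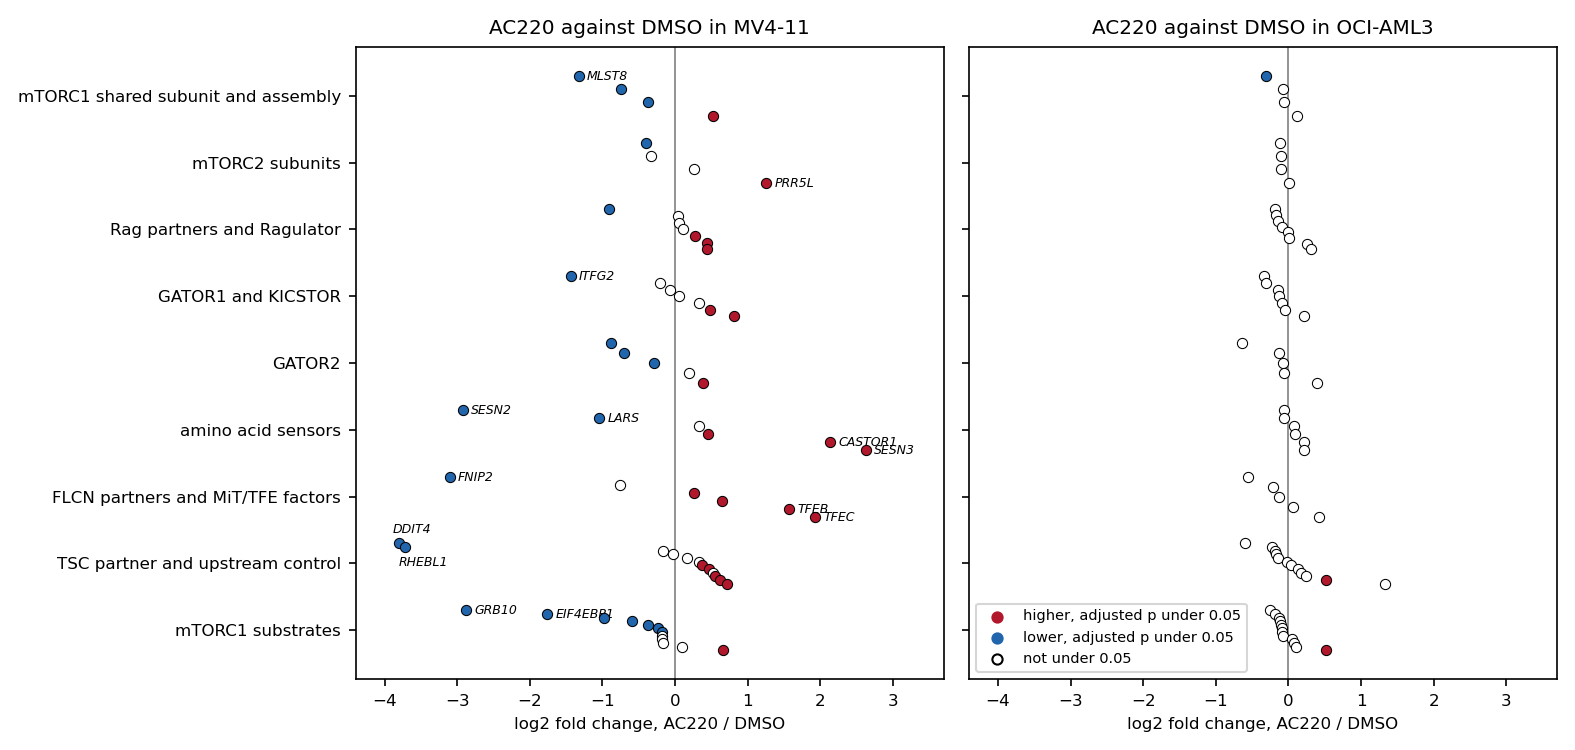
Log2 fold change of AC220 against DMSO for the other pathway genes tested, grouped by list on the vertical axis, in MV4-11 and in OCI-AML3. Filled points passed the test. Each panel shows 63 of the 64 genes, since RRAGB had no counts in MV4-11 and TFEC none in OCI-AML3. In MV4-11 the values run from -3.80 (DDIT4) to 2.63 (SESN3), and in OCI-AML3 from -0.64 to 1.33.

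In OCI-AML3, 3 of the 64 passed (4.69%, beside 3.95% of all tested genes). MLST8 was lower, at 61.2 ± 5.49 and then 49.3 ± 2.07 CPM (SD, n = 3; -0.31, adjusted p = 0.036), PRKAA1, the catalytic AMPK subunit, was higher (22.8 ± 3.14 to 32.7 ± 3.61 CPM; 0.52, adjusted p = 0.0182), and PATL1 was higher (46.9 ± 9.02 to 66.9 ± 5.01 CPM; 0.51, adjusted p = 0.025). All 3 calls were lost when any of 4 OCI-AML3 libraries was left out: DMSO replicate 1 (adjusted p between 0.153 and 0.255), DMSO replicate 2 (0.135 to 0.172), AC220 replicate 2 (0.0688 to 0.0907) and AC220 replicate 3 (0.131 to 0.148), and the MLST8 call also without AC220 replicate 1 (0.0746) or MV4-11 DMSO replicate 2 (0.0558). SESN2 and DDIT4, which fell in MV4-11, were at 128 ± 3.64 and 124 ± 6.09 CPM and at 82.4 ± 5.76 and 70.4 ± 7.35 CPM in OCI-AML3 and did not pass. The interaction passed for 35 of the 64, 17 more positive and 18 more negative in MV4-11 (54.7%, beside 46.7% of all tested genes), with DDIT4 (-3.57), RHEBL1 (-3.85), SESN2 (-2.87), GRB10 (-2.77), EIF4EBP1 (-1.66) and TFEB (2.13) among them. Some partners differed between the lines themselves. RRAGB, an alternative partner of RRAGC and RRAGD, had no counts in any MV4-11 library and 98 counts in all over the OCI-AML3 DMSO group, at least 39.6-fold higher there, taking 3 counts over the group as the floor. TFEC had no counts in OCI-AML3 and was at least 145-fold higher in MV4-11 under DMSO by the same floor.

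The MiT/TFE factors bind a short element, TCACGTG, which contains the E-box CACGTG, and these factors lie downstream of the Rag and FLCN branch. RefSeq promoter windows on GRCh38.p14, from 250 bases before to 50 after a gene's start, were searched for it on both strands. Such windows were found for 7 of the 10 genes (8 windows, since TSC2 has 2) and TCACGTG lies in 2 of the 8, those of TSC2 and RRAGC. It lies in 4 of 90 windows of the other pathway genes, those of LAMTOR1, LAMTOR4, FNIP1 and RRAGB, and in 3.71% of all 35116 promoters. CACGTG, counted also where it is part of TCACGTG, lies in 7.26% of all promoters. By gene it was found for 2 of the 7 and for 9 of 56 other pathway genes with a window. The share over all promoters is by window and a gene can have several, so these counts by gene cannot be set directly against it. Shown are the 200 bases before the start for TSC2 and RRAGC, which went opposite ways in MV4-11, and for LAMTOR1, LAMTOR4 and FNIP1, partners of the Rag and FLCN proteins that passed as higher there, FNIP1 with a call lost in 7 alternative fits. The window of RRAGB, which holds 4 matches, is not shown because the gene had no counts in MV4-11. Capitals mark TCACGTG on either strand (CACGTGA when read on the other strand), and each sequence is given 5′ to 3′ on the strand of its gene.
TSC2 (chr16:2047785-2047984, plus strand): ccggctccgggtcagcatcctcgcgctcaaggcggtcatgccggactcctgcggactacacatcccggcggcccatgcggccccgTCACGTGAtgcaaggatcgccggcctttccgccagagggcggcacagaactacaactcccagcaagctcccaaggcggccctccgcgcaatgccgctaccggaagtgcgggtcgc
RRAGC (chr1:38859773-38859972, minus strand): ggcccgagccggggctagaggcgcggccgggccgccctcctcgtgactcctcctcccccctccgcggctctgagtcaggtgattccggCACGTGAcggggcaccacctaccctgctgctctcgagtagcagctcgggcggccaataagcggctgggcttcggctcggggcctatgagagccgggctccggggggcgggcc
LAMTOR1 (chr11:72103298-72103497, minus strand): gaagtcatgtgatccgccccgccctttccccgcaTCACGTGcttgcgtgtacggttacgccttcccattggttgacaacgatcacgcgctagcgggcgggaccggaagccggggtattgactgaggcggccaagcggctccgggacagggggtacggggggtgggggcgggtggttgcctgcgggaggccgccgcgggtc
LAMTOR4 (chr7:100148718-100148917, plus strand): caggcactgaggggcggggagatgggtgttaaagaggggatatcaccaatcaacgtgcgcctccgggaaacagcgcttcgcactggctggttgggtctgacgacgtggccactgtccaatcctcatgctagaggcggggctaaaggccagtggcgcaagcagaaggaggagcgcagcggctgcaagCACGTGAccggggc
FNIP1 (chr5:131797018-131797217, minus strand): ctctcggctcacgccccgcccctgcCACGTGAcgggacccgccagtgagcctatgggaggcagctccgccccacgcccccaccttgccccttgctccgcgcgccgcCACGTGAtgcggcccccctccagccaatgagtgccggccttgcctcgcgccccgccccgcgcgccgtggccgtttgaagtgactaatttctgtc
In TSC2 matches on both strands overlap into TCACGTGA, and in FNIP1 there are 2 separate matches. A match says only that the letters are present, and no binding of a factor was measured in these cells.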

How the data were processed

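RNA from MV4-11 and OCI-AML3 cells was sequenced with a 3′-end mRNA kit (the labels name no molecular identifiers), and 12 libraries in 4 groups were used. The authors deposited whole-number counts per gene and a table of normalised log2 values. Per the submitters' processing notes, the tools were HISAT2 2.0.4, cutadapt 1.9.1, featureCounts from Subread 2.0.0, limma 3.42.2 in R 3.6.1, FastQC 0.11.6 and bcl2fastq 2.17.1.14, with build hg19. The annotation and strand setting are not given in the sources used here.

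The deposited counts were tested in R 4.3.3 with edgeR 4.0.16 (TMM scaling, its default filter on low counts, quasi-likelihood F test, 12392 genes, 1 fit over 4 groups, threshold 0.05 on the Benjamini-Hochberg adjusted p). The SE is the absolute log2 fold change divided by the square root of F, and intervals are 95%. The entry without a gene symbol held 0.00343 to 0.00503% of the counts and was left out. The fit was tried on simulated counts for AC220 against DMSO in each line, with a small share of genes changed. The other comparisons were not simulated. Since 58.3% of tested genes passed in MV4-11, the simulation checks the code and not the scaling. Alternatives were median-ratio scaling, other filters (none, or at least 1 CPM in 3 libraries with a mean count of 20), DESeq2 1.42.0, limma 3.58.1 with voom, limma on the deposited log2 values, the replicate number as a block, only the libraries compared, and leaving out each library. Leaving out both OCI-AML3 libraries numbered 3 was added after the data were seen.

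The 10 genes and the lists were chosen with earlier results of these data known. All 10 are named throughout. Of each list, up to 3 genes with the smallest adjusted p in MV4-11 are named, with any gene called in OCI-AML3 and any where 5 or fewer went one way. The values of 1 gene that this rule names are not reported here. Other genes (RICTOR, MITF, RPS6KB1, RPS6KB2, TELO2, RRAGB and AKT1) were named after their values were seen. Genes most like a member were named where its group means spanned at least 1 in log2. Overlapping genes were read from GENCODE 29. The value of a gene is relative to all other transcripts in its library, and counting error alone does not cover variation between cultures.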

Additional observations from a re-analysis of the deposited data

Results flagged for a closer look

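The response to AC220 differed between the lines, by a test of the difference itself (edgeR interaction term over 12 libraries), for 4 of the 10 genes, a share below the 46.7% of all tested genes that passed the same test. The log2 fold change in MV4-11 minus that in OCI-AML3 was 0.615 for RRAGC (SE 0.139, adjusted p = 0.000554). It was 1.95 for DEPTOR (SE 0.485, adjusted p = 0.00148), which in OCI-AML3 rests on 7 to 12 counts a library. RHEB differed by -0.413 (SE 0.13, adjusted p = 0.0102) and FLCN by -0.393 (SE 0.137, adjusted p = 0.0193).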

How the results depend on the processing

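Among the 10 genes, RHEB, TSC2, DEPTOR, RRAGC and FLCN passed in MV4-11 in every alternative, and MTOR, RRAGD and TSC1 lost their calls in the settings given with their values. The number that passed in MV4-11 was 8 and lay between 6 and 8 in the settings that left out no single library, and between 5 and 8 without each library in turn, the lowest without MV4-11 DMSO replicate 2. In OCI-AML3 it was 0, 1 with DESeq2, and 0 to 1 without each library. The number of other pathway genes that passed in OCI-AML3 was 3, 0 with limma on the deposited values, and 0 to 5 without each library; the cause was not tested. In that line the count over all genes went from 489 to 1 with limma on the deposited values and to between 13 and 1136 without each library, 13 without OCI-AML3 DMSO replicate 1 and 1136 without MV4-11 AC220 replicate 1. Without each library, the other pathway genes numbered 36 to 42 in MV4-11 and 31 to 36 for the difference between the lines. Members numbered 3 to 5 for that difference, 4 to 5 for the lines under DMSO and 4 to 6 under AC220, and other pathway genes 33 to 39 and 49 to 55. Of the 12530 to 12611 genes tested in those fits, 6620 to 7391 passed in MV4-11 and 5308 to 6130 for the difference. Between the lines, 7563 to 8424 passed under DMSO and 9150 to 9580 under AC220. No estimate past the threshold changed sign. Estimates that did not pass changed sign in 27 cases among the 10 genes, none larger than 0.2 in size.

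The replicate numbers were not taken to pair the libraries, since not every same-number correlation of deviations from group means was over 0.1. In MV4-11 these correlations were -0.102 to -0.0637 for the same number and -0.00986 to 0.0995 for different numbers. In OCI-AML3 they were 0.0422 to 0.126 and -0.0868 to 0.029, so that every library there correlated best with its own number, a hint from the data and not from the design. With the replicate block, 6 of the 10 genes passed in MV4-11 and 0 in OCI-AML3, 4 for the difference between the lines, and 41 and 2 of the other pathway genes in MV4-11 and OCI-AML3. Of all 12392 genes tested in that fit, 7080 passed in MV4-11, 381 in OCI-AML3 and 5626 for the difference between the lines. Depth limits DEPTOR in OCI-AML3 (7 to 12 counts) and FNIP2 and CASTOR1 in MV4-11.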

Other observations

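AKT1, the kinase that relieves TSC inhibition of RHEB, was at 21.2, 22.7 and 29.1 CPM under DMSO and at 42.2, 63.5 and 77.6 CPM under AC220 in OCI-AML3. Its groups did not overlap, as for 23.9% of all tested genes, and it was just short of the threshold (1.33, SE 0.303, adjusted p = 0.0504). It passed in 8 of the alternative fits (adjusted p between 0.00291 and 0.0488). In MV4-11 the library numbered 1 of the AC220 group stood at 41.2 CPM beside 21.6 and 20.5 CPM in the others and 30.5 to 32.8 CPM under DMSO.

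Between the lines, SESN3 and FNIP2 were each lower in MV4-11, and under DMSO the libraries did not overlap, as for 71.9% of all tested genes. SESN3 was at 1.93 ± 1.26 CPM (SD, n = 3) in MV4-11 and 37 ± 5.99 CPM in OCI-AML3 under DMSO (edgeR log2 fold change -4.28, SE 0.313, adjusted p = 2.38e-07), and FNIP2 at 1.06 ± 0.197 and 21.4 ± 2.82 CPM (-4.33, SE 0.229, adjusted p = 5.79e-16).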
